A study of Mus musculus with 11 samples.

Results

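miR-203 and miR-204 are 2 mouse miRNAs, short RNAs that guide Argonaute proteins to mRNAs and lower their stability or translation. They were taken from the small RNA tables of spermatogonial progenitor cells (SPCs) by name, as every entry with the stem miR-202, miR-203 or miR-204 and any arm, because these stems have described roles in the gonad or in spermatogonial stem cells. This gave 3 of the 1096 mature miRNAs, namely miR-203-3p, miR-203-5p and miR-204-5p. miR-202-5p and miR-202-3p were not analysed here, and neither were miR-204-3p and the miR-203b entries of the opposite strand.

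A miRNA is cut from a hairpin precursor by Drosha and Dicer, and each side of the hairpin can give a mature form, called 5p or 3p. Bases 2 to 8 of the mature form, the seed, largely decide which mRNAs it binds, so miRNAs with the same seed are grouped as a family. miR-203 is best known from stratified epithelium, where it restrains the proliferation of progenitor cells, and miR-204 from the eye, where it is produced from an intron of the ion channel gene Trpm3.

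The SPCs were enriched for Thy1 from the testes of pups and grown on mitotically inactivated STO feeder cells, which are mouse embryonic fibroblasts. The labels give the strain C57BL/6 and postnatal day 6, whereas the culture protocol names the strain B6;129S-Gt (Rosa) 26Sor/J and an age of 6 to 8 days. Control cells (genotype Mov10 Vector) carried the empty lentiviral vector and the others (genotype Mov10 knockdown) a lentiviral shRNA against Mov10, an RNA helicase, so both groups were transduced. Each group is 1 library, so the comparison asks how the 2 libraries differ and has no replicate check. The depletion of Mov10 itself cannot be seen in small RNA libraries. The control library held 9628835 miRNA reads and the knockdown library 2794593. A count of 3 reads, taken as the limit that a count of 0 allows, corresponds to 0.285 and 0.939 TPM (reads per 1000000 of the library's total) in the control and the knockdown.

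The mature sequences (RefSeq, GRCm38.p6) are shown 5′ to 3′ with the seed in capitals, since the seed sets which miRNAs are relatives. miR-211-5p is included as the paralog that shares the miR-204 seed.
miR-203-3p: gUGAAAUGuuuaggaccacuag
miR-203-5p: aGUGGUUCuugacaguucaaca
miR-204-5p: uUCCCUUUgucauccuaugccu
miR-211-5p: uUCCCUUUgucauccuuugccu

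The seed of miR-203-3p was found in 1 of the 1679 mature mouse miRNAs of the RefSeq table, miR-203-3p itself, and that of miR-203-5p was likewise unique to it. The seed of miR-204-5p was found in 3, the others being miR-211-5p and miR-7670-3p. miR-204-5p and miR-211-5p are each 22 bases long and are identical at 21 of them. The only difference is A17U, with the base of miR-204-5p first and positions counted from 1 at the 5′ end, which lies outside the seed. Reads were mapped without mismatch, so a read covering that base is assigned to 1 of the 2.

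The precursors are shown with the measured mature forms in capitals, to place the 2 arms of miR-203 and the single measured arm of miR-204.
Mir203: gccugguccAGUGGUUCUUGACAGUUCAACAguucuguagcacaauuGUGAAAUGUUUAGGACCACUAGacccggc
Mir204: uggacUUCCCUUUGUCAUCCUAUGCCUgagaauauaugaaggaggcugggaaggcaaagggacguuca

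Mir203 lies on the plus strand of GRCm38 at chr12:112130880-112130955 and, in GENCODE vM21, inside no other gene on its strand. The nearest protein-coding genes are Aspg, which ends 3320 bp before it, and Kif26a, which starts 15252 bp after it. Mir204 lies on the plus strand at chr19:22750605-22750672, within Trpm3. All 18 Trpm3 transcripts that span the hairpin hold it in an intron, which in the transcript Trpm3-201 is intron 6 of 27 exons and is 33462 bp long. Its paralog Mir211 (chr7:64205806-64205911, plus strand) is likewise intronic in all 12 spanning transcripts of Trpm1, and in Trpm1-218 it also lies in intron 6. The miRNAs thus come from an intergenic locus in the case of miR-203 and from introns of related channel genes in the case of miR-204 and miR-211.

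miR-203-3p was lower in the Mov10 knockdown library. The control library held 2486 reads of it and the knockdown library 375. These correspond to 236 TPM (95% Poisson interval 227 to 246) and 117 TPM (106 to 130) respectively, so the intervals of the libraries did not overlap. The control TPM was 2.01 times that of the knockdown, which on the log2 scale is a change of -1.01 (95% exact interval of the read rate ratio -1.17 to -0.85). The exact binomial test with Benjamini-Hochberg adjustment over all 1096 miRNAs gave an adjusted p of 7.4e-42, which compares the 2 libraries for counting error and not the conditions.

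miR-204-5p did not follow miR-203-3p. The control library held 74 reads of it and the knockdown library 29. The level was 7.04 TPM (5.52 to 8.83) in the control against 9.08 TPM (6.08 to 13.0), with overlapping intervals. The log2 fold change was 0.36, with an interval of the read rate ratio from -0.30 to 1.01 and an adjusted p of 0.49 by the same exact test, so a change was not separated from counting error at this depth. It stayed above 0 in each scaling that corrects for depth, up to 0.64 with DESeq2 size factors. With 1 common total, which leaves the difference in depth in and lowers nearly all miRNAs, it was -1.32.

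The minor arm, miR-203-5p, was near the detection limit. Its 5 control reads gave 0.475 TPM (0.154 to 1.11) and its 1 knockdown read 0.313 TPM (0.00793 to 1.74). The ratio of its TPM was 0.659, with a counting interval from 0.0139 to 5.89, and no change was detectable at this depth.

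**Figure D1:**
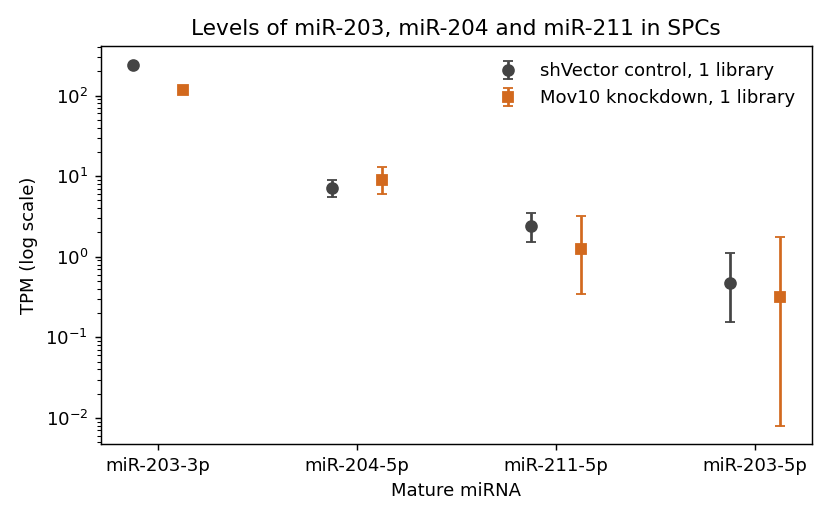
TPM (log scale) of miR-203-3p, miR-204-5p, the paralog miR-211-5p and miR-203-5p in the shVector control (circles) and the Mov10 knockdown (squares), 1 library each, with 95% Poisson intervals of the reads as bars. Only miR-203-3p, at 236 and 117 TPM, has intervals that do not overlap between the libraries.

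Of the 3 entries, 1 was lowered by the test and 0 were raised, beside 21.4% lowered and 10.7% raised among all 1096 miRNAs. By the rule of more than 1.5 TPM in either library and a change over 1.5-fold, miR-203-3p was reduced, miR-204-5p was neither reduced nor raised, and miR-203-5p was below the minimum. The fold and the minimum are those of the study, which reported a larger excess of reduced over raised miRNAs than was found here. By this rule 41.5% of the 607 miRNAs above the minimum were reduced and 15.8% were raised. A decrease was thus frequent in this comparison, and nothing particular to these miRNAs is read from the counts. These 607 had a median log2 fold change of -0.37. The share of lowered among called miRNAs was 66.8%, but 49.7% with DESeq2 size factors and 98.4% with 1 common total. DESeq2 size factors place the median ratio of miRNAs read in both libraries at no change. With 1 common total the difference in depth is left in, so both shares follow in part from the scaling. Relative to the median of -0.37, miR-203-3p was lower by 0.64 on the log2 scale (a difference of -0.64), and miR-204-5p was higher by 0.73.

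Among miRNAs of like level the 2 also stood on opposite sides of the middle. Within 2-fold of the control TPM of miR-203-3p there were 96 other miRNAs, with a median log2 fold change of -0.37 and quartiles of -0.92 and 0.13, and 22 of them were lower than miR-203-3p. Within 2-fold of miR-204-5p there were 120 others, with a median of -0.52 and quartiles of -1.21 and 0.13, and 24 of them were higher than miR-204-5p. By reads, miR-203-3p ranked 141st in the control and 180th in the knockdown among the 1096 miRNAs, and miR-204-5p ranked 407th and 364th.

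**Figure D2:**
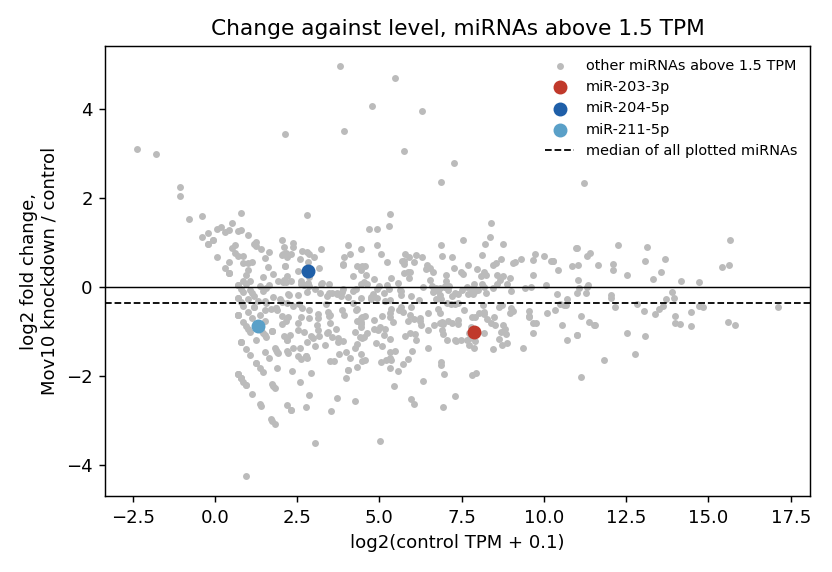
Log2 fold change of the knockdown over the control against log2(control TPM + 0.1) for the 607 miRNAs above 1.5 TPM, 1 point per miRNA, with miR-203-3p, miR-204-5p and miR-211-5p coloured. The dashed line is the median of -0.37, with miR-203-3p at -1.01 below it and miR-204-5p at 0.36 above it.

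A ratio of reads within 1 library does not depend on how the libraries are scaled. There were 33.6 reads of miR-203-3p for each read of miR-204-5p in the control (95% exact interval 26.7 to 42.9) and 12.9 in the knockdown (8.86 to 19.6). These intervals did not overlap, so the balance of the 2 miRNAs differed between the libraries by more than counting error, with less miR-203-3p per miR-204-5p in the knockdown.

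**Figure D3:**
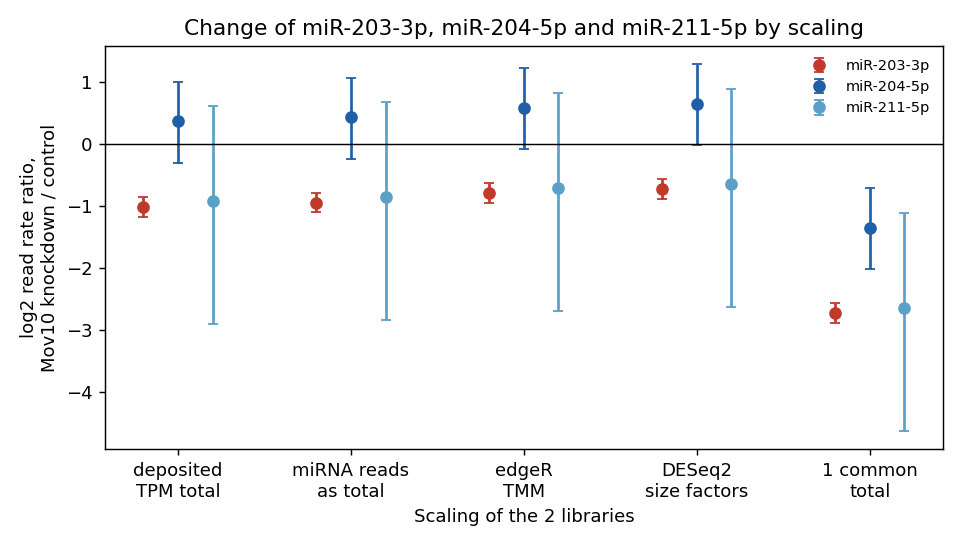
Log2 ratio of the read rates, knockdown over control, under 5 scalings of the libraries, with 95% exact intervals for counting error as bars. miR-203-3p is below 0 in all 5 scalings, whereas miR-204-5p is above 0 in 4 and below 0 with 1 common total, and the interval of miR-211-5p crosses 0 in the first 4.

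The arms of the miR-203 hairpin were strongly unequal in both libraries. The 5p form made up 0.201% of the reads of the hairpin in the control (5 of 2491, 95% Clopper-Pearson interval 0.0652 to 0.468%) and 0.266% in the knockdown (1 of 376, 0.00673 to 1.47%). The smaller arm held a median of 4.07% of control reads over the 233 miRNAs with both arms and at least 10 reads in each library, and 34 of these had a lower share than miR-203. The shares of the 2 libraries were not separated by Fisher's exact test (adjusted p = 0.84 over the 233), which called 23.2% of the 233. With 1 read of the 5p form in the knockdown, a change in its share was not detectable at this depth.

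Of the seed relatives of miR-204-5p, miR-211-5p was the less abundant paralog. Its reads, 25 against 4, gave 2.38 TPM (1.54 to 3.51) in the control library and 1.25 TPM (0.341 to 3.21) in the other. Its log2 fold change was -0.87 with an interval of the read rate ratio from -2.91 to 0.61 (adjusted p = 0.55 by the exact binomial test), so a change was not separated from counting error. There were 2.96 reads of miR-204-5p per read of miR-211-5p in the control (1.86 to 4.86) against 7.25 in the knockdown (2.55 to 28.4), with overlapping intervals. The third miRNA of the family, miR-7670-3p, had a single control read and 0 in the knockdown, a count that allows up to 3 reads or 0.939 TPM there.

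The order of the levels in TPM, which here has no length correction and is compared between miRNAs of 22 bases each, was the same in both libraries. miR-203-3p was highest, followed by miR-204-5p, miR-211-5p and miR-203-5p. In the control no neighbours in this order had overlapping intervals. In the knockdown miR-211-5p and miR-203-5p were not separated.

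The miRNAs with the most similar pair of levels, by Euclidean distance on log2(TPM + 0.1) over the 2 libraries, were miR-467d-5p, miR-3470a and miR-669a-5p for miR-203-3p. The nearest, miR-467d-5p, had 2314 and 374 reads (log2 fold change -0.91) at a distance of 0.103. For miR-204-5p they were miR-190a-5p, miR-1981-3p and miR-129b-5p, of which miR-190a-5p had 73 and 30 reads (log2 fold change 0.43) at a distance of 0.0521. With 2 libraries this likeness describes level and change only. Within 50 kb of Mir203 the table held 1 other miRNA, miR-3073a-5p, with 1 control read and 0 knockdown reads.

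Lists of miRNAs known from several cell types were set beside these results, to be read against the 21.4% lowered and 10.7% raised among all miRNAs. These shares include miRNAs with few reads, where the test can rarely pass, so lists of abundant miRNAs are called more often. For example, 28 of the 29 spermatogonial entries were above 1.5 TPM, against 607 of all 1096. The list of spermatogonial and pluripotent germ cells was well covered, with all 15 stems present and a summed level of 210791 TPM in the control and 224649 TPM in the knockdown. Its most abundant entries were miR-182-5p at 142065 and 103395 TPM and miR-21a-5p at 51967 and 107056 TPM. The study reported a significant reduction of miR21a in the knockdown by RT-qPCR, whereas the TPM of miR-21a-5p was higher there. The measures are unlike, as the RT-qPCR was relative to U6 and TPM is a share of each library. The study also reported lower miR21a primary transcripts and a changed share of the long Vmp1 transcript that holds pri-miR21a. By the test 19 of the 29 entries of the list were lowered and 5 raised (median log2 fold change -0.62). The counts were 13 and 5 with DESeq2 size factors (median -0.34), and 28 and 0 with 1 common total, which leaves the difference in depth in. The 5 raised entries belong to miR-21a, miR-221, miR-222 and miR-146a, which are also known from many other cell types. Whether the same holds for the lowered entries was not examined. One of these, miR-221-5p, shares its stem with a raised entry (log2 fold change -0.21, adjusted p = 0.028 by the exact binomial test). The list of meiotic and later germ cells had 14 entries, 7 lowered and 3 raised (median -0.60), and summed to 75553 and 57835 TPM. Its most abundant entry, miR-871-3p, had 49591 TPM in the control and 28515 TPM in the knockdown. The lowered entries were all from miR-871, miR-741, miR-743a and miR-880, and the raised ones from miR-34b and miR-34c. Whether these miRNAs mark meiotic or later cells in this progenitor culture was not tested. Over all 1096 miRNAs the median was -0.64, which includes miRNAs with few reads. Among entries above 1.5 TPM the median was -0.62 in the spermatogonial list and -0.43 in the meiotic list. The 607 miRNAs above that minimum had a median of -0.37.

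In the epithelial list, where miR-203 is usually abundant, 2 of 10 entries were lowered and 0 raised, with a median of -0.72. The list summed to 186 TPM in the control and 87.0 TPM in the knockdown. Most of this was miR-205-5p, another miRNA of stratified epithelium, with 1668 and 220 reads (log2 fold change -1.20, adjusted p = 4.7e-37 by the exact binomial test). miR-200b-3p, of the family that maintains the epithelial state, had 134 and 21 reads (log2 fold change -0.94, adjusted p = 0.011 by the same exact test), a call that was lost with DESeq2 or edgeR TMM factors, where 1 of the 10 entries was lowered. The other 8 entries did not pass and lay on both sides of 0. They ran from -1.69 for miR-200a-3p (13 and 1 reads) to 0.91 for miR-141-5p (3 and 2 reads), both below 1.5 TPM. This range leaves out miR-200b-5p, which had 5 control reads and 0 in the knockdown. Of the 8 entries, those above 1.5 TPM were miR-205-3p at -0.49, miR-429-3p at -0.98 (27 and 4 reads) and miR-141-3p at 0.28. The 5 epithelial entries above this minimum, called or not, had a median of -0.94. miR-203-3p alone, at 236 and 117 TPM, exceeded the whole list in both libraries.

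In the neural list, which includes miR-211, 2 of 10 entries were lowered and 1 raised (2 raised with DESeq2 or edgeR TMM factors), with a median of -0.91 and sums of 606 and 348 TPM. The lowered entries were both from miR-128, with 4775 and 748 reads for miR-128-3p, and the raised one was miR-9-5p with 546 and 248 reads (log2 fold change 0.58). The miR-124 entry with most reads, miR-124-3p, had 20 and 3 reads.

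The fibroblast list stands for cells like the STO feeders of the cultures. It summed to 27675 TPM in the control and 32318 TPM in the knockdown, and 6 of its 11 entries were raised and 1 lowered (median 0.13), with 1 entry at 0 in the knockdown. These counts were the same in the 3 other scalings that correct for depth, whereas with 1 common total, which leaves the difference in depth in, 10 of the 11 were lowered and 0 raised. Its most abundant entry, miR-143-3p, had 18362 and 20113 TPM. The blood cell list summed to 177 and 35.7 TPM with 2 of 8 entries lowered and 0 raised (median -0.62), both from miR-142a. Its 3 entries above 1.5 TPM had a median of -2.45. The muscle list summed to 3.90 and 3.76 TPM with 0 of 4 called (median -0.99), and its 2 entries above 1.5 TPM had a median of 0.11. The part of these cell types in the values of miR-203-3p and miR-204-5p was not tested. In bulk RNA, fewer cells of a type and less of a miRNA per cell cannot be told apart.

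**Figure D4:**
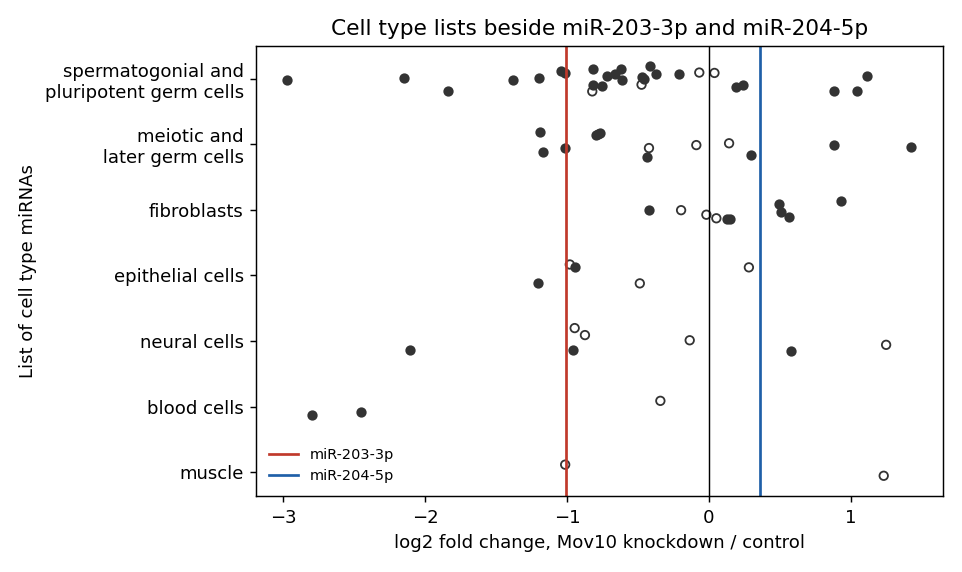
Log2 fold change of the knockdown over the control for the miRNAs of each cell type list that were above 1.5 TPM in either library, 1 point per miRNA, filled where the adjusted p of the exact binomial test was below 0.05 and open otherwise, with vertical scatter only for legibility. Lines mark miR-203-3p at -1.01 and miR-204-5p at 0.36, and the epithelial entries shown run from -1.20 for miR-205-5p to 0.28 for miR-141-3p.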

How the data were processed

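The 2 small RNA libraries were analysed, and the RNA-seq and CLIP-seq samples were not analysed here. Per the study's methods, reads were quality checked with KASAVA 1.8, rRNA was filtered and adaptors were trimmed with Fastx 0.0.13.2, and reads were mapped to miRBase 21.0 without mismatch with CLC Genomics Workbench 5.5. The methods speak of triplicate samples in 2 libraries, and whether they were pooled is not given in the sources used here. The authors deposited counts, the raw reads per mature miRNA. The authors also deposited TPM, which equals reads divided by a library total (10518277 in the control, 3194363 in the knockdown) per 1000000, without length correction.

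Log2 fold changes used TPM + 0.1, which understates the change of low miRNAs. Reads were compared by a two-sided exact binomial test that takes the library totals as given (Benjamini-Hochberg adjustment over all 1096 miRNAs, threshold 0.05), and arm shares by Fisher's exact test. With 1 library per group the negative binomial tools have no residual degrees of freedom, so edgeR 4.0.16 and DESeq2 1.42.0 served for scaling factors only. Intervals (95%) and limits cover counting error only, as reads carry no molecular identifiers, and the shallower knockdown library (0.313 TPM per read, against 0.0951 in the control) limits precision. RefSeq gave a sequence for 908 of 1096 miRNAs.

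The miRNAs and lists were chosen with earlier results of these data known. Named were the entries of the 3 stems, miRNAs with the same seed, the 3 nearest in level for entries with at least 50 reads, and at most 3 per list. miR-200b-5p, miR-200a-3p, miR-429-3p, miR-141-3p, miR-141-5p, miR-124-3p, miR-221-5p and the stems of the raised germ cell entries were named after their values were seen. So were the stems of the lowered entries of the meiotic list. The arm share planned for miR-202 was computed for miR-203, and the let-7 list planned beside miR-202 was not used. Alternatives were a pseudocount of 1, other scalings, other minima, a 2-fold threshold and another adjustment. The tools were R 4.3.3 and Python 3.11.15 with scipy 1.17.1, numpy 2.4.6, matplotlib 3.10.9 and pandas 2.3.3.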

Additional observations from a re-analysis of the deposited data

How the results depend on the processing

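No paired analysis was possible because the control and the knockdown are 1 small RNA library each. miR-203-3p stayed lowered past the threshold in all 6 alternatives run for it, with log2 fold changes from -1.01 to -0.73 where each library had its own total and -2.73 with 1 common total. miR-204-5p turned from 0.36 to -1.32 with 1 common total (29 against 74 reads, adjusted p = 2.5e-05, exact binomial test), which follows from leaving the library totals uncorrected. Its adjusted p otherwise ran from 0.13 to 0.49. miR-203-5p passed in none of its 5 alternatives, and the adjustment over miRNAs above the minimum could not be run for it. The number of the 3 entries reduced over 1.5-fold moved from 1 to 2 with 1 common total, and the number raised from 0 to 1 with DESeq2 size factors, where miR-204-5p was at 0.64.

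Over all miRNAs, DESeq2 size factors moved the median log2 fold change of those above the minimum from -0.37 to -0.05, the number raised over 1.5-fold from 96 to 157, and the share of lowered among called miRNAs from 66.8% to 49.7%. edgeR TMM factors gave 145 raised and 54.0%, and 1 common total gave 561 reduced, 10 raised and 98.4%. DESeq2 and edgeR TMM factors both place the typical miRNA at or near no change, so their shifts follow in part from the scaling. Called miRNAs, 235 lowered and 117 raised, became 176 and 178 with DESeq2 size factors and 607 and 10 with 1 common total. Without a minimum 561 were reduced and 186 raised, and with a 2-fold threshold 161 and 40, against 252 and 96. The few reads of miR-203-5p, miR-211-5p and miR-204-5p in the knockdown library limit what can be said of them.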
